A study of Mus musculus with 16 samples.

Results

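The constantly open and constantly acetylated regions are stretches of the mouse genome that were called open by ATAC-seq in every library and overlapped an H3K27ac interval in every library, at both embryonic ages. They were chosen by merging the intervals of the 6 ATAC peak lists on chromosomes 1 to 19 and X where they overlapped by at least 1 bp. Regions under 2000 bp that held an interval of all 6 lists, and that overlapped an interval of all 4 H3K27ac lists, were kept and are called members here. Merging gave 335268 regions, of which 33757 were held by all 6 ATAC lists and 33458 of these were under 2000 bp. Of those 33458 constantly open regions, 3549 (10.6%) were members, 20447 overlapped 1 to 3 H3K27ac lists and 9462 overlapped none. Because openness, acetylation and width chose the members, these are described below without a test.

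The libraries came from progenitors of the organ of Corti, the hearing epithelium of the cochlea, sorted by fluorescence from mouse embryos at E12.0 and E13.5. The E12.0 cells were sorted for Sox2-GFP and the E13.5 cells for p27-GFP, and no other allele or treatment is given in the labels. Age and reporter changed together and cannot be told apart, and a reporter sort takes every cell in which the reporter is on. There were 2 RNA libraries per age (poly(A) selected), 3 ATAC libraries per age, 2 H3K27ac libraries per age and 2 pan-Tead libraries at E12.0, the last 2 kinds made by CUT&RUN, which cuts chromatin around an antibody-bound protein. Nothing in the labels ties replicates to different litters or sorts, and p-values therefore reflect only how far these libraries spread, which may be technical. All 8 of the epithelial and prosensory markers Epcam, Cdh1, Sox2, Jag1, Gata3, Sox9, Lfng and Isl1 were at 1 TPM (a library-scaled level per transcript length) or more in every RNA library. Their TPM summed to 1216 and 1490 at E12.0, then 3476 and 3699 at E13.5. The 5 mesenchymal markers summed to 728 and 818, then 419 and 530, so mesenchymal marker RNA was also present, most at E12.0.

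ATAC-seq marks DNA that a transposase can reach, which in most cells means active promoters, enhancers and sites held open by bound factors. Acetylation of histone H3 at lysine 27 is placed by p300 and CBP on the nucleosomes that flank active promoters and enhancers, so a region that is open and acetylated is usually read as active. Tead factors are DNA-binding proteins that recruit the co-activators Yap and Taz, the outputs of the Hippo pathway, and in the cochlea they are known for their part in progenitor growth.

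The promoter windows of 8 genes that start at members are shown because the results turn on them: Exoc4 and Mtr lie at the strongest open members, Prrc2a at a promoter member among the strongest in both Tead lists, Pcna and Kif11 stand for cell division, and Cdkn1b, Cldn3 and Ybx1 for large changes in RNA. They were picked after their values were seen. Each window is RefSeq sequence of GRCm38.p6, 250 bases before to 50 after the annotated start, printed 5′ to 3′ on the gene's strand. Capitals mark the letters CCAAT (the CCAAT box, read by NF-Y), GGGCGG (the GC box, read by Sp factors) and GATGGCG (the YY1 core), each searched on both strands. The windows are chr6:33248878-33249177 (plus strand) for Exoc4, chr13:12258064-12258363 (minus) for Mtr, chr6:134920151-134920450 (plus) for Cdkn1b, chr5:134985964-134986263 (plus) for Cldn3, chr2:132253131-132253430 (minus) for Pcna, chr19:37376132-37376431 (plus) for Kif11, chr4:119294464-119294763 (minus) for Ybx1 and chr17:35164828-35165127 (minus) for Prrc2a.
Exoc4: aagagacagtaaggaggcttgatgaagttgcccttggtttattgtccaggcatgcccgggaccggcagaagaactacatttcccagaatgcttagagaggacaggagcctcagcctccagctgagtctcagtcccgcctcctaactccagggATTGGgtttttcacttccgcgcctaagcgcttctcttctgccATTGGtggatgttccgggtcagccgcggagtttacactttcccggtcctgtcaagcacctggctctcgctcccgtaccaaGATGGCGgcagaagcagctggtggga
Mtr: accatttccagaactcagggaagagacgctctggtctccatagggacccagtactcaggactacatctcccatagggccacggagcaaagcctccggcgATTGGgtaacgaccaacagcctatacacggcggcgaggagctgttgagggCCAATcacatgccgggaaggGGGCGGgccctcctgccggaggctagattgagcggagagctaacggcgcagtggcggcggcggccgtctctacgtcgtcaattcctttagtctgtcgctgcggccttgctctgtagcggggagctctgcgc
Cdkn1b: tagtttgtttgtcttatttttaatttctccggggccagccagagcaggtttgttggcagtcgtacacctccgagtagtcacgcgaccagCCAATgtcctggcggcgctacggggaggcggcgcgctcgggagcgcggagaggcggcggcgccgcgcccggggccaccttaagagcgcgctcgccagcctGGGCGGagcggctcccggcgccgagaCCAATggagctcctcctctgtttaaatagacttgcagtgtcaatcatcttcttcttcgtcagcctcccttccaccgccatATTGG
Cldn3: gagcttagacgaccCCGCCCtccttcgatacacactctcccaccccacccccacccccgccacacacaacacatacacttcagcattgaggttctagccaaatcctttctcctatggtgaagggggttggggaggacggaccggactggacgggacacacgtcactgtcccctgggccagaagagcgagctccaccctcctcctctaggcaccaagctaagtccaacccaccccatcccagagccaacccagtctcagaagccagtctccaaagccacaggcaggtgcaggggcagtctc
Pcna: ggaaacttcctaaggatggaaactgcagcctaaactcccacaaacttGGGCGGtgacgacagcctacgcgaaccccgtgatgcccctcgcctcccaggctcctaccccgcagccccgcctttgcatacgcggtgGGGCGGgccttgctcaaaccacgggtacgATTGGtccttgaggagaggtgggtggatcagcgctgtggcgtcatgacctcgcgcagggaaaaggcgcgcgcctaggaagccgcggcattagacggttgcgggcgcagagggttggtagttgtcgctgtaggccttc
Kif11: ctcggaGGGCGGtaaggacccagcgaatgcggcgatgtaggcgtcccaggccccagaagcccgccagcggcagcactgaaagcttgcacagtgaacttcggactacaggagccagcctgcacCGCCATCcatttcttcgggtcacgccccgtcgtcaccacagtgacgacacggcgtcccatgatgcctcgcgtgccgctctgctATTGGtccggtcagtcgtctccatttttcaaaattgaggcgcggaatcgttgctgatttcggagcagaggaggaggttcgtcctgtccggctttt
Ybx1: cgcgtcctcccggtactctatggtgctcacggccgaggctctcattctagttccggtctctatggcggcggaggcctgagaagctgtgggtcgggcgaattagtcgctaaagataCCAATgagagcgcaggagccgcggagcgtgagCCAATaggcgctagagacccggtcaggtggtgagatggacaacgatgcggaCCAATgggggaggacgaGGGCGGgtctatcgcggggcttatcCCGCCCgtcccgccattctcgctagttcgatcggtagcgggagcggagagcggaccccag
Prrc2a: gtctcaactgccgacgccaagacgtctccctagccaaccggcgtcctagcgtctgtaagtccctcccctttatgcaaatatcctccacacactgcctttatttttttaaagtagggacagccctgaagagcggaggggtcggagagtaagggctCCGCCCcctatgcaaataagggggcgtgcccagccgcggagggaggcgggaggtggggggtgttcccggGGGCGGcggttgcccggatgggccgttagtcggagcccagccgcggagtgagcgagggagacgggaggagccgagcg

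The ratio of observed to expected CpG was 0.353 in the Cldn3 window, the lowest of the 8, and 0.546 to 1.09 in the others. Exoc4, Mtr, Cdkn1b, Pcna, Kif11 and Ybx1 hold at least 1 CCAAT box. Ybx1 and Cdkn1b hold 3 each, with leftmost bases from -135 to -52 and from -161 to 46 relative to the start. Cldn3 and Prrc2a hold GC boxes only, and none of the 8 holds the letters GGAATG or CATTCC of the Tead core. Over all 2247 promoter windows near a member, 45.1% held CCAAT, 62.5% the GC box and 23.3% the ETS core CCGGAAG. The shares over all 32619 windows of the table were 37.6%, 35.9% and 8.92%. In 2888 windows near a constantly open region with no H3K27ac list, the shares were 29.5%, 65.3% and 5.89%, with CCAAT and the ETS core in fewer of those windows and the GC box in slightly more. In 9509 windows near a region with 1 to 3 H3K27ac lists, the class most like the members, they were 37.4%, 65.8% and 18.1%. The cores of Nrf1 (GCATGCG, 7.66%), YY1 (7.57%) and CRE (TGACGTC, 6.54%) also had higher shares near a member than over all windows (3.59%, 3.51% and 3.23%) or near the regions with none (3.91%, 3.19% and 3.08%). Near regions with 1 to 3 lists these shares were close to the members', at 6.68%, 6.63% and 6.01%. The TATA box (TATAAA) was in 6.05% of windows near a member, 6.01% of those near a region with 1 to 3 lists and 13.7% of all windows. The E-box CACGTG was in 8.5% of windows near a member (191 windows) and in 7.20% of all windows. Its shares near regions with 1 to 3 lists and with none were higher than the members', at 10.8% and 9.31%. The AP-1 letters TGACTCA were in 3.07% of windows near a member and 5.22% of all windows. Near regions with 1 to 3 lists and with none the AP-1 shares were 2.71% and 3.91%. The ratio of observed to expected CpG had a median of 0.775 near a member, 0.780 near regions with 1 to 3 lists, 0.676 near regions with none and 0.387 over all windows. The Tead core was in 10.9% of windows near a member, in 8.33% of the 348 windows near a member in both Tead lists, and in 14.6% of all windows. Near regions with 1 to 3 lists and with none its shares were close to the members', at 11.95% and 11.8%. A match is a description of letters only, all motifs were searched on both strands, and matches were counted whether or not they overlapped another motif.

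Several libraries stood apart, and the number of members rests on them. Peaks with a −log10 q of 2 or more made up 15.9% of the E12.0 H3K27ac replicate 2 list, 26.3% of the E13.5 H3K27ac replicate 2 list and 14.0% of the Tead replicate 1 list, against 49.2% to 88.3% of each other list. The weakest H3K27ac list in this sense did not limit membership most: without E13.5 H3K27ac replicate 2 the rule gave 8922 regions, and without E12.0 H3K27ac replicate 2 it gave 4772. Leaving out any other ATAC or H3K27ac list gave between 3508 and 3883. When only peaks with a −log10 q of 2 or more were merged, 1040 regions passed the rule, and all 1040 overlapped a member. E12.0 H3K27ac replicate 1 and Tead replicate 1 were made with the KAPA HTP kit and the other CUT&RUN libraries with the Accel 2S Plus kit, so kit and replicate number coincide at E12.0. The RNA libraries held 9412326 and 9810603 expected counts at E12.0, then 17057751 and 19570946 at E13.5.

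Within each list, a peak's fold (signal over local background, the authors' own value) was turned into a rank from 0 to 100, and a member took the rank of its highest peak. The members' median rank was 92.5, 91.9 and 89.1 in the 3 E12.0 ATAC lists and 94.6, 95.2 and 94.8 in the 3 E13.5 ATAC lists, so the typical member stood in the top part of every ATAC list. In H3K27ac the median rank was 91.8 and 90.2 at E12.0, then 94.3 and 72.0 at E13.5, with the last value from E13.5 replicate 2. The mean ATAC rank over the 6 libraries had a median of 92.0 in members, 85.5 in constantly open regions with 1 to 3 H3K27ac lists and 77.3 in those with none. Members were also the widest of these classes, with a median of 1078 bp (quartiles 892 and 1278) against 926 and 695 bp.

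At the width limit, the widest members lay at the starts of Dusp7 (1993 bp), Neo1 (1997 bp) and Rap2b (1999 bp). The narrowest regions that met every other condition but reached the limit lay at Fbxl14 (2000 bp), 396 bp from Pitpnc1 (2001 bp) and at Txndc16 (2024 bp). The limit kept out 46 such regions in all, 42 of which were within 500 bp of a gene start.

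Inside a member the marks had a common layout, with the open site in the middle and the H3K27ac summit to one side of it. The centre of a member was set at the median of its 6 ATAC summits. Single ATAC libraries had their summit a median of 8.5 to 29.0 bp from this centre. In H3K27ac the median distance was 172 and 178 bp in the E12.0 libraries and 195 and 225 bp in the E13.5 libraries, and only 11.1% to 17.9% of members had the H3K27ac summit within 75 bp of the centre. The share of summits per 50 bp was highest 150 to 200 bp on either side of the centre in all 4 H3K27ac libraries. The Tead replicate 2 summits also had a maximum on each side, at 100 to 150 bp, with a median distance of 180 bp over 3372 members. Tead replicate 1 had a median of 217 bp over 394 members. The summit of Tead replicate 2 lay a median of 116 bp from that of E12.0 H3K27ac replicate 1 and 174 bp from that of E12.0 H3K27ac replicate 2. For Tead replicate 1 these distances were 185 and 206 bp. The summits of the 2 E12.0 H3K27ac libraries lay 166 bp apart, within the range of these distances.

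**Figure D1:**
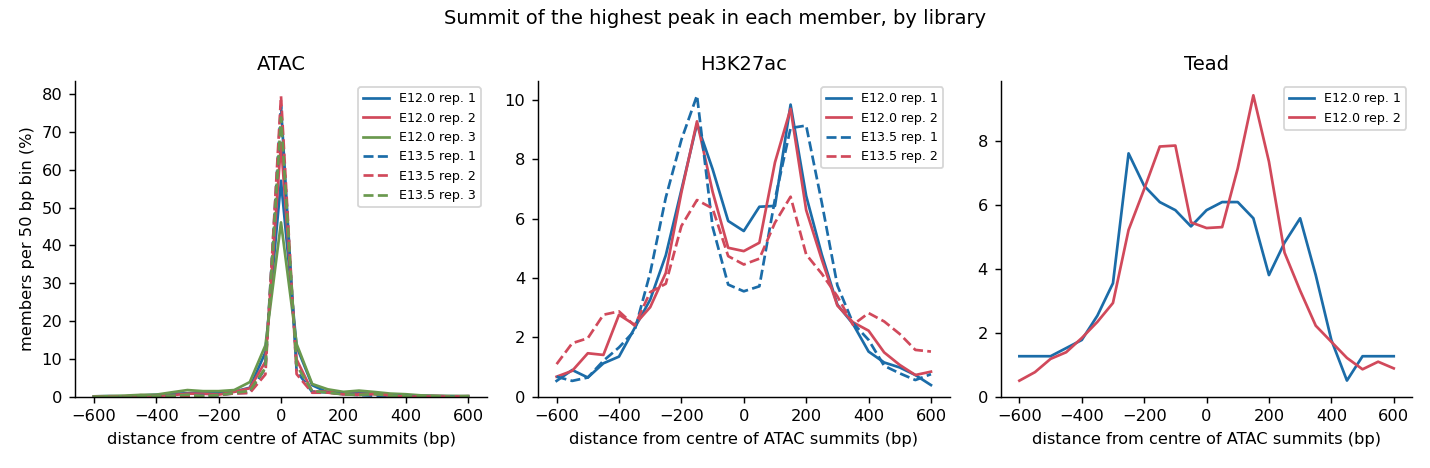
Percent of members (vertical axis) whose highest peak has its summit in each 50 bp bin of distance from the centre of the ATAC summits (horizontal axis, bp), with 1 line per library for ATAC, H3K27ac and Tead; libraries without an interval in a member are left out for that member. ATAC summits pile up at the centre by construction, and H3K27ac and Tead replicate 2 summits are most frequent 100 to 200 bp to either side.

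In 1113 members whose nearby gene starts were all on 1 strand, positions could be read along the gene. The nearest gene start lay a median of 35.5 bp downstream of the ATAC centre and was downstream in 70.0% of them. The H3K27ac summit was downstream of the centre in 55.6% and 51.8% of them at E12.0 and in 58.0% and 54.5% at E13.5, so summits lay on both flanks, slightly more often on the transcribed side. Tead replicate 2 summits were downstream in 57.1% of 1066 such members and Tead replicate 1 summits in 44.8% of 145.

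Gene starts held a larger part of the members than of the other constantly open regions. A start lay within 500 bp of 1771 members (49.9%), and inside the region in 1718 of them (48.4% of members). The share within 500 bp was 42.1% in regions with 1 to 3 H3K27ac lists and 31.8% in regions with none. Another 418 members (11.8%) lay between 500 bp and 10 kb from a start, against 18.7% and 29.4% of the other classes. The remaining 1360 (38.3%) lay over 10 kb away and are called distal here. That share was close to those of the other classes, at 39.2% and 38.7%. Of the distal members, 684 lay inside the span of a coding gene and 676 between coding genes, and 890 had a coding start within 100 kb. Starts on both strands within 500 bp were found at 394 of the members near a start (22.3%). The shares were 13.7% and 7.64% in the other classes, whose regions were narrower. The order of the starts was not checked, so not all of these need be bidirectional promoters. These shares compare classes of regions from the same libraries and were not tested. With peaks of −log10 q of 2 or more, 64.7% of the 1040 regions were near a start, and with annotated starts only (no fallback to the end of a gene span) 44.0% of the 3549 members were.

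The strongest members at gene starts were those of Exoc4 (a subunit of the exocyst, which tethers secretory vesicles), Gm40097, Mtr (methionine synthase), Eldr, Fgd4 (an exchange factor for the GTPase Cdc42) and Zfp748 (a zinc finger gene). The Exoc4 member had ATAC ranks of 99.97, 99.86 and 99.91 at E12.0, then 99.97, 99.98 and 99.93 at E13.5. Its H3K27ac ranks were lower and uneven, at 82.6, 95.4, 94.4 and 72.0. The Mtr member had mean ranks of 99.89 in ATAC and 96.7 in H3K27ac. At Fgd4 the mean ATAC rank was 99.86, but the H3K27ac ranks were 94.4, 92.1, 89.0 and 10.49, the last again from E13.5 replicate 2. Thus the members with the highest ATAC ranks did not all have high acetylation ranks.

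Among distal members, the strongest by ATAC was chrX:143482935-143483179, 245 bp long and 35412 bp from the start of Pak3 (a p21-activated kinase). It ranked at 99.99 or above in all 12 peak lists, Tead lists included. The next were chr14:119007195-119007992 (69263 bp from Dnajc3, a chaperone gene), chr8:19784451-19785307 (54875 bp from 4930467E23Rik) and chr10:62865010-62866055, 21269 bp from the start of Tet1 (an enzyme that oxidises methylated DNA). The Dnajc3 member had a mean rank of 99.85 in ATAC and 98.1 in H3K27ac, and the Tet1 member 99.36 and 91.7. Another was chr12:29290527-29291466 (84880 bp from Gm31569), with a rank of 27.2 in E13.5 H3K27ac replicate 2. No genome was used here, so distal members are given by position only. The X member near Pak3, the chromosome 8 member near 4930467E23Rik and a pair of members near Cldn34d on X were at or near the top of all 6 CUT&RUN lists, H3K27ac and Tead alike (rank 98.3 or more). They ranked high whichever antibody was used, and no list of known problem regions was used here to check them, so their ranks may not be specific to either mark. What these few places share was not tested.

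Chromosome X held few members for its number of constantly open regions. Of its 643 constantly open regions under 2000 bp, 12 were members (1.87%), against 3537 of 32815 (10.8%) on the autosomes, where the share ranged from 8.495% to 12.6%. The gap was not in the ATAC ranks, whose median was 87.8 on X and 83.7 on the autosomes. Nor was it the same in the 4 H3K27ac lists. The share of constantly open regions with an interval on X and on autosomes was 50.4% and 51.6% in E12.0 replicate 1, 61.1% and 65.2% in E13.5 replicate 1, 17.0% and 33.3% in E12.0 replicate 2, and 5.44% and 17.6% in E13.5 replicate 2. Both replicate 2 lists, which have the fewest H3K27ac peaks of −log10 q of 2 or more, had the wide gap. The Tead replicate 2 list, where 61.7% of peaks reached that value, also had a lower share on X, at 25.5% against 43.6% on autosomes. In Tead replicate 1 the shares were 2.64% and 3.58%. The cause of the gap was not tested. The 12 members lay at the starts of Otud5, Bcap31, Pbdc1, Atp7a, Rragb, Tceanc and Mid1, 68 bp from that of Ebp, and farther from the starts of 2010308F09Rik, Pak3 and Cldn34d (2 members).

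Tead intervals were not used to choose the members. An interval of Tead replicate 1 overlapped 394 members (11.1%) and one of Tead replicate 2 overlapped 3372 (95.0%). Both lists overlapped 388 members (10.9%) and neither overlapped 171. The order of the classes was the same in each Tead list. Regions with 1 to 3 H3K27ac lists had shares of 3.58%, 53.0% and, for both lists, 2.68%, and regions with no H3K27ac list had 0.687%, 2.88% and 0.0423%, the last being 4 of 9462. With 2 Tead libraries of 1 age no test over samples is possible, and both are E12.0 libraries made by CUT&RUN, as the H3K27ac libraries were. Tead replicate 1 was made with the KAPA HTP kit and replicate 2 with the Accel 2S Plus kit. Kit and replicate thus cannot be told apart in the Tead shares. Of all Tead intervals, 2.24% (replicate 1) and 6.90% (replicate 2) lay in members. Conversely, 87.0% and 46.8% of Tead intervals overlapped neither E12.0 H3K27ac list.

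Stronger and wider members more often had Tead intervals, and the order of the classes held in every bin of strength and of width. In 5 bins of the mean ATAC rank, from weakest to strongest, both lists overlapped 3.48%, 5.92%, 8.81%, 12.5% and 13.54% of members. In the same bins the share was 1.55% to 4.53% in regions with 1 to 3 H3K27ac lists and at most 0.103% in regions with none. In 5 bins of width the share rose from 4.10% (184 to 588 bp) to 14.9% (1221 to 1999 bp) in members, and was at most 3.80% and 0.0867% in the other classes. Members near a gene start had both Tead lists in 14.1%, against 7.72% of distal members. With Tead peaks of −log10 q of 2 or more the share over all members was 3.72%, so most of the overlap in both lists involved a weak peak.

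**Figure D2:**
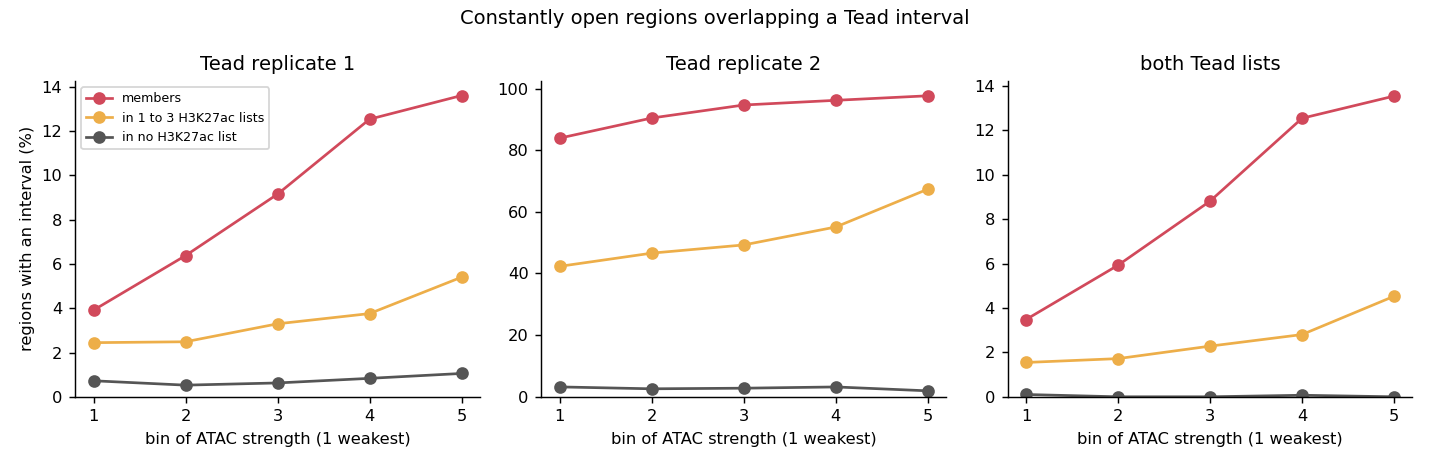
Percent of constantly open regions that overlap a Tead interval (vertical axis, scales differ) in 5 bins of mean ATAC rank (horizontal axis), for members, regions in 1 to 3 H3K27ac lists and regions in none; panels show Tead replicate 1, replicate 2 and both. Members lie above the other classes in every bin of every panel, from 3.48% to 13.54% for both lists.

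The strongest members in both Tead lists, by the smaller of the 2 Tead ranks, were those near Pak3 (at the top of both lists), the pair near Cldn34d (99.98 each), the start of 4931408C20Rik (99.8), the chromosome 8 member (99.76) and the start of Prrc2a (99.7). The Pak3, Cldn34d and chromosome 8 members are the 4 that topped the H3K27ac lists as well. The pair near Cldn34d had the same fold in every CUT&RUN list (15.5 and 23.7 for Tead). The same peaks were thus probably counted for both members of the pair. Prrc2a encodes an RNA-binding protein. Its member, chr17:35164370-35165593, had Tead folds of 10.4 and 5.18, H3K27ac folds of 7.64, 6.47, 8.01 and 3.57, and a mean ATAC rank of 92.1. Farther from genes, chr9:121979132-121980068 (15958 bp from the start of Pomgnt2) and chr12:5267879-5268902 (13550 bp from Gm51980) followed, with smaller Tead ranks of 98.7 and 97.0. The Polr2a member, at the gene for the largest subunit of RNA polymerase II, was uneven between the Tead libraries, with ranks of 99.93 and 78.6. Without the 53 members that lie on X or have a mean H3K27ac rank of 99 or more, 10.47% of members had both Tead lists.

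Genes that start at members were mostly expressed, at higher levels than genes in general. A start within 500 bp of a member was found for 2231 genes, 1971 of them coding, which is 9.11% of all 21631 coding genes. RNA rows were matched for 2082 of the genes, and 1974 passed the filter on low counts. Of the matched coding genes near a member, 97.6% passed that filter, against 94.5% of those near a region with 1 to 3 H3K27ac lists, 57.2% of those near a region with none and 17.6% of the rest. The share of coding genes that lay near a member was 0.0819% among genes with a mean TPM of 0, 1.32% up to 1 TPM, 8.41% from 1 to 10, 17.99% from 10 to 100 and 19.5% above 100. Among genes that passed the filter, those near a member had a median of 18.99 and 23.6 TPM in the E12.0 libraries and 39.4 and 38.4 TPM in the E13.5 libraries. All genes tested had 9.47 and 12.1, then 19.1 and 18.3 TPM. Genes near a region with 1 to 3 H3K27ac lists came close to those near members, with 14.7 and 18.9, then 32.7 and 32.5 TPM, and their share of coding genes also grew with level, from 1.66% at 0 TPM to 72.1% above 100 TPM. Genes near a region with no H3K27ac list had 2.65 and 3.06, then 5.92 and 5.81 TPM.

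**Figure D3:**
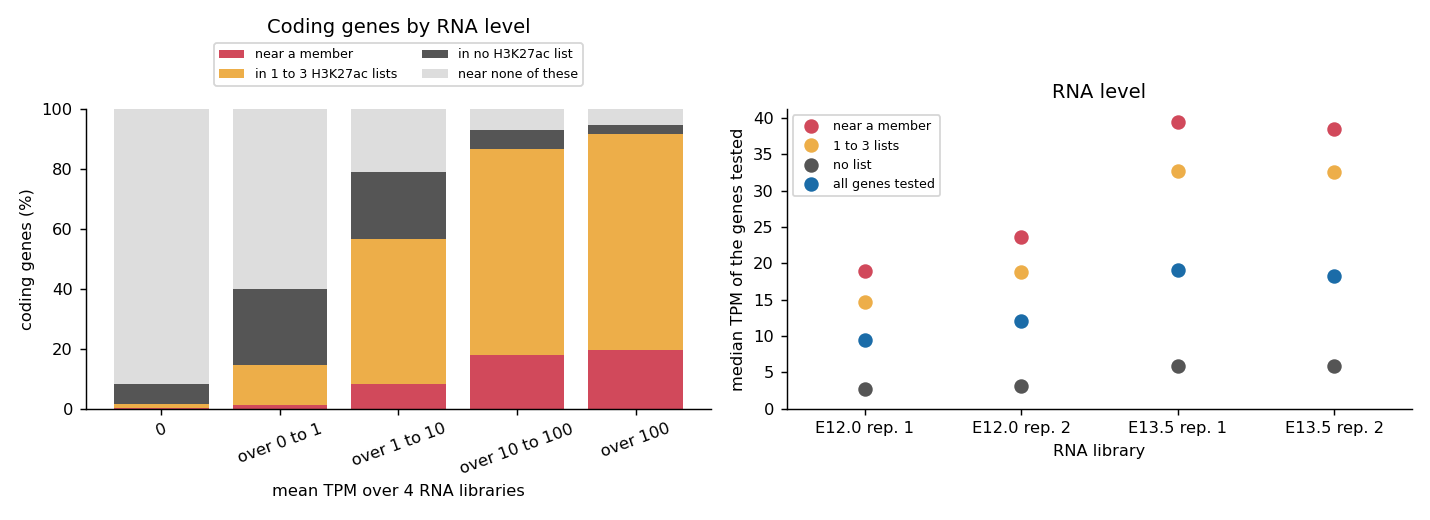
Left, percent of coding genes (vertical axis) by the kind of constantly open region near their start, in bins of mean TPM over the 4 RNA libraries (horizontal axis). Right, median TPM of the genes tested (vertical axis) in each RNA library (horizontal axis) for genes near a member, near the other classes and for all genes. The share near a member is 0.0819% at 0 TPM and 19.5% above 100 TPM, and genes near a member have the highest median in each of the 4 libraries.

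Between the ages, genes at members changed about as often as genes in general among those that passed the filter on low counts. In edgeR's quasi-likelihood test with Benjamini-Hochberg adjustment (threshold 0.05), 45.9% of all 15982 genes tested were called, 22.4% higher and 23.5% lower at E13.5. Of the 1974 genes near a member, 423 (21.4%) were higher and 471 (23.9%) lower, close to that background. Their median log2 fold change was 0.07, beside 0.05 for all genes, and the median absolute change was 0.85 beside 1.06. Among 296 tested genes near a member in both Tead lists, 64 were higher and 77 lower, and among the 1678 others 359 and 394. In bulk samples, fewer cells of a type and less RNA per cell cannot be told apart. The split of higher and lower depends on the scaling: on log2(TPM + 1) with limma the median of all genes tested moved from 0.05 to 0.76, and 886 genes near a member were then higher and 179 lower, beside 41.3% and 12.5% of all genes tested. With no filter on low counts, 44.6% of genes near a member and 29.9% of all genes were called, and without E12.0 RNA replicate 1 33.7% and 29.5%, with 26252 and 17785 genes tested.

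Gene lists of basic cell functions had more of their genes at members than coding genes as a whole (9.11%), a share that includes genes without RNA. Among coding genes with 10 to 100 TPM and above 100 TPM it was 17.99% and 19.5%, nearer to the lists. The lists were chosen with earlier results of these data known, and their shares were not tested. A member lay near 10 of 35 genes of RNA polymerase II and its general factors, 8 of 31 proteasome genes, 9 of 35 splicing factors, 9 of 35 translation factors, 20 of 78 cytosolic ribosomal protein genes, 7 of 28 G2/M genes (mitosis) and 7 of 31 S phase genes (DNA replication). The share was 12.5% for nuclear genes of the respiratory chain (5 of 40), and 2 of 10 general epithelial genes were at members (Cldn3 and Cldn4). Developmental lists stood near or below the share of coding genes as a whole, with 3 of 27 Hippo and Yap/Tead genes (Stk4, Taok1 and Tead3), 2 of 27 common Yap/Tead targets (Arhgef17 and Rbms3), 2 of 25 prosensory genes (Cdkn1b and Id2), 1 of 17 supporting cell genes (Slc1a3), 1 of 17 immediate early genes (Jun) and 0 of 17 hair cell genes. No gene of the neuronal, mesenchymal, endothelial, erythroid, immune, glial and melanocyte lists (62 genes) had a member near its start. In most lists of expressed genes the larger part started near a constantly open region in 1 to 3 H3K27ac lists, among them 17 of 25 prosensory, 22 of 27 Hippo, 56 of 78 ribosomal protein and 20 of 28 G2/M genes, while 10 of the 17 hair cell genes had one in none.

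**Figure D4:**
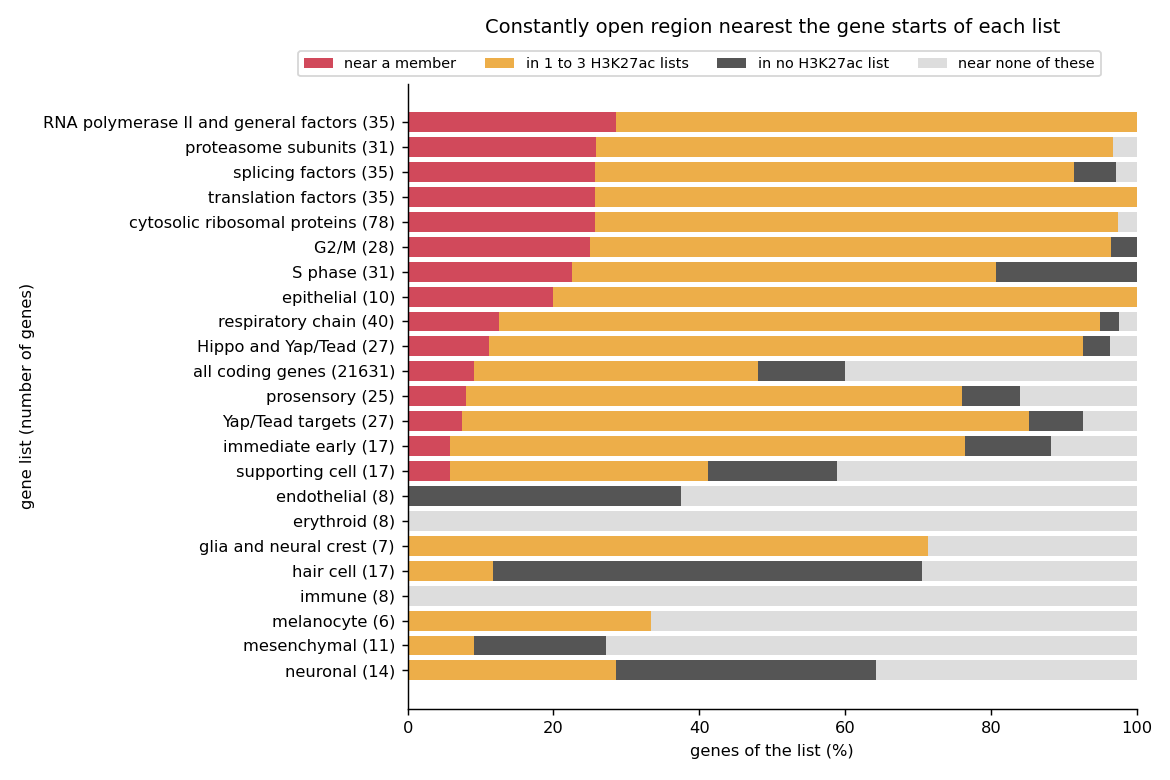
Percent of the genes of each list (horizontal axis) by the kind of constantly open region within 500 bp of a start, with the number of genes in brackets (vertical axis). Lists of basic cell functions reach 28.6% at members, all coding genes 9.11%, and the hair cell, neuronal and mesenchymal lists 0%.

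Some of the listed genes at members fell at E13.5, most clearly those of cell division. All 7 G2/M genes at members (Aurka, Cdc20, Cenpe, Kif11, Kif20a, Mad2l1 and Plk1) were lower, with a median log2 fold change of -3.12, where 23.5% of all genes tested were lower. The 21 G2/M genes not at members were all lower too (median -3.30), so this fall was shared by the list. Of the 7 S phase genes (Cdc45, Fen1, Mcm2, Mcm5, Mcm7, Pcna and Rfc4), 6 were lower, with a median of -2.01, and of the 24 others 18 were lower and 2 higher (median -1.58). Among the 20 ribosomal protein genes 17 were lower and 2 higher, with a median of -1.96, and among the 58 others 39 were lower and 4 higher (median -1.20), though many of these genes have near-identical copies among which reads could be split, so their values are uncertain. On log2(TPM + 1) with limma the medians of these lists were -2.39, -1.21 and -1.01, with 6 of 7, 5 of 7 and 10 of 20 genes lower and 3 ribosomal protein genes higher, where 12.5% of all genes tested were lower. Among genes at members, the direction of 3 other lists differed between scalings. The proteasome genes had a median of -0.63 (3 of 8 lower) in edgeR and 0.37 (3 higher, 1 lower) on TPM, translation factors -0.47 (4 of 9 lower, 1 higher) and 0.27 (3 higher, 1 lower), and respiratory chain genes -0.23 (2 of 5 lower) and 0.53 (1 higher). At members, splicing factors kept a negative median, at -0.85 (6 of 9 lower) and -0.18 (2 higher, 1 lower). So did genes of RNA polymerase II and its general factors, at -1.47 (6 of 10 lower, 1 higher) and -0.38 (3 lower, 1 higher). For list genes not at members, the proteasome medians were 0.20 in edgeR and 0.97 on TPM. Those of translation factors were -0.29 and 0.55, and of respiratory chain genes -0.11 and 0.78. Splicing factors not at members had -0.32 and 0.40, and RNA polymerase II genes -0.37 and 0.56. Medians at members thus describe those genes only.

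Kif11 encodes the kinesin that pushes spindle poles apart. It had 181 and 236 CPM (counts scaled to the total over genes tested, after edgeR's TMM scaling) at E12.0, then 10.1 and 22.3 at E13.5. Its log2 fold change was -3.68 ± 0.39 (SE, n = 2 against 2, adjusted p = 5.9e-05, edgeR). Pcna, the sliding clamp of DNA polymerase, had 279 and 207 CPM and then 26.5 and 33.4, a change of -3.02 ± 0.28 (adjusted p = 3.0e-05, edgeR). Both genes had higher values in each E12.0 library than in either E13.5 library. Their members were near the top of the ATAC scale at both ages: the Kif11 region ranked at 99.6, 98.0 and 95.7 in the E12.0 ATAC lists and at 99.05, 99.02 and 99.17 in the E13.5 lists, and the Pcna region at 97.2, 96.4 and 97.3, then 96.6, 97.0 and 93.0. A rank within a list shows no change in signal, so these values describe place in each list only. The H3K27ac ranks were 95.4, 99.5, 98.1 and 72.0 at Kif11 and 91.5, 99.5, 96.9 and 94.3 at Pcna. Mcm7, a subunit of the replicative helicase, had 1168 and 695 CPM, then 96.0 and 102.1. Polr2a fell from 433 and 275 CPM to 58.5 and 57.2.

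Cdkn1b rose the most of the listed genes at members. It encodes p27, the inhibitor of cyclin-dependent kinases with which progenitors leave the cell cycle, and its reporter was used to sort the E13.5 cells. RNA was at 7.70 and 8.59 CPM at E12.0 and at 228 and 182 CPM at E13.5, a log2 change of 4.65 ± 0.30 (SE, n = 2 against 2, adjusted p = 6.1e-06, edgeR). The groups were far apart, and the sort and the age cannot be told apart in this gene. Its member, chr6:134919681-134920846, was open and acetylated at both ages, as the rule requires of every member. The ATAC ranks of this member were 95.9, 93.1 and 90.2 at E12.0, then 86.3, 63.2 and 92.2 at E13.5. These are places within each list and show no change in signal. The H3K27ac ranks were 85.3 and 88.1 at E12.0, then 98.6 and 20.9 at E13.5. An interval of Tead replicate 2 overlapped it, at rank 53.8, and none of replicate 1 did.

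Other large rises at members were Acss3 (an acyl-CoA synthetase), Mospd3, Atad2b (a bromodomain ATPase), Cldn3 (a claudin of tight junctions) and Kifc2 (a kinesin), chosen as the largest changes past the threshold with groups that did not overlap. Cldn3 had 3.03 and 3.41 CPM at E12.0, then 50.2 and 64.1 at E13.5, a log2 change of 4.14 ± 0.37 (SE). Acss3 had 0.138 and 1.06 CPM, then 28.8 and 27.6, and Mospd3 0.688 and 0.706, then 19.5 and 23.4. The low E12.0 values rest on few counts. The E12.0 values of Acss3 were far apart, and its log2 change was 4.71 without E12.0 replicate 1 and 7.60 without E12.0 replicate 2. Kifc2 was also uneven at E12.0, with 1.65 and 7.06 CPM before 65.1 and 46.7. Acss3 and Kifc2 were placed at members by an end of the gene span, which may not be the start.

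The largest falls were Rpl27 (a protein of the large ribosomal subunit), Lbh (a transcription cofactor), Ybx1 (a nucleic acid-binding protein with a cold shock domain), Ska3 (a kinetochore protein), Nfya (the subunit of NF-Y that reads the CCAAT box) and Cramp1l. Ybx1 had 3456 and 2831 CPM at E12.0, then a mean of 99.1 ± 1.29 CPM (SD, n = 2) at E13.5, a log2 change of -4.99 ± 0.30 (SE). Rpl27 had 4474 and 2458 CPM, then 88.5 and 107. Rpl27 and Ybx1 have near-identical copies in the genome, so the size of their change is uncertain. Nfya had 47.6 and 56.0 CPM, then 1.43 and 2.54, a log2 change of -4.69 ± 0.42 (SE), and Ska3 had 152 and 142 CPM, then 3.91 and 5.93. For each of the 6 genes every E12.0 value was above every E13.5 value.

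**Figure D5:**
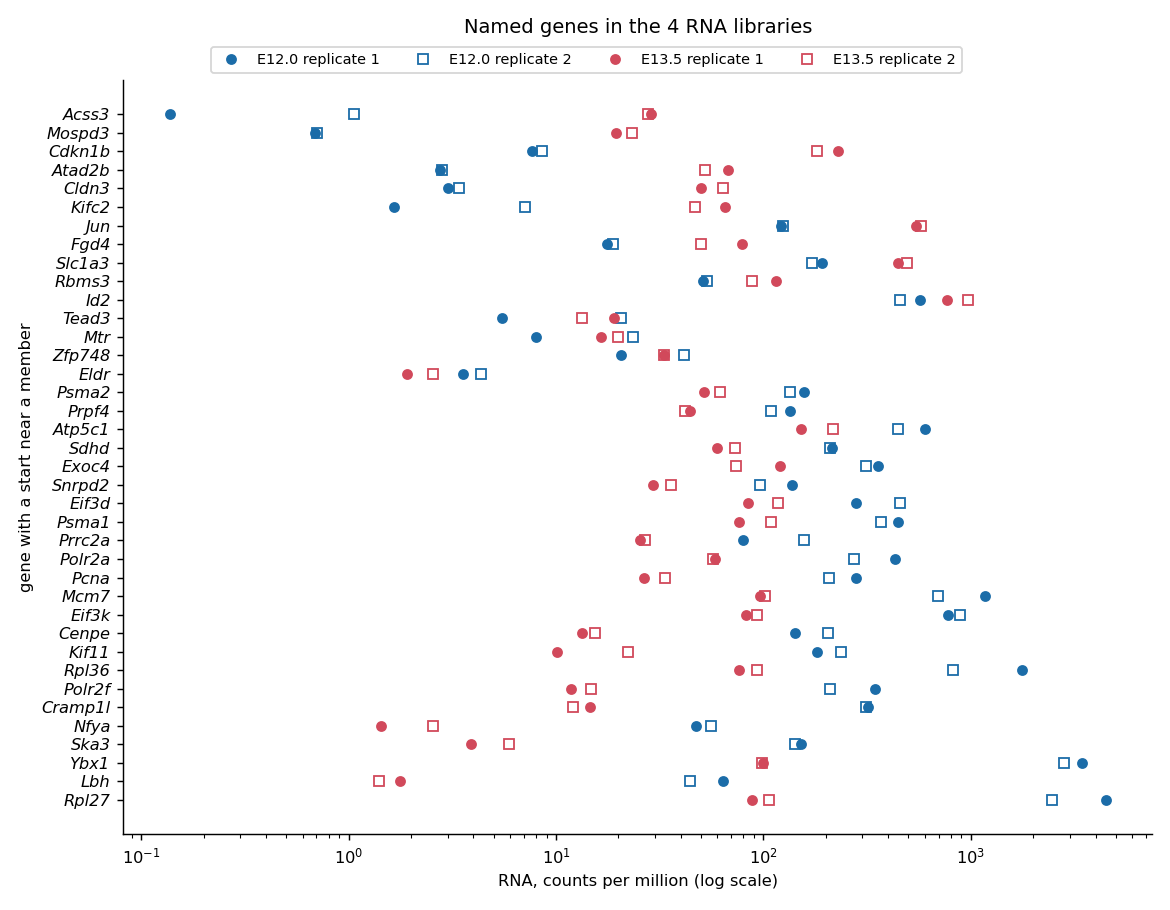
RNA in CPM (horizontal axis, log scale) of 38 named genes that start near a member (vertical axis, ordered by log2 fold change), with 1 point per library, E12.0 in blue and E13.5 in red. The stages are far apart for genes such as Cdkn1b and Ybx1 and mixed for Tead3, Mtr and Zfp748.

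Not every gene at a strong member changed. Mtr, at the third strongest promoter member, had 7.98 and 23.4 CPM at E12.0, then 16.5 and 20.0 at E13.5 (log2 change 0.21 ± 0.49, adjusted p = 0.75, edgeR). The Zfp748 values overlapped too, with 20.5 and 41.6, then 33.3 and 33.1 CPM. Exoc4 had 359 and 314 CPM, then 121 and 73.8 (-1.79 ± 0.29, adjusted p = 0.00075, edgeR), and on TPM it was not called (-0.57). Prrc2a fell from 80.1 and 158 CPM to 25.3 and 26.95 in edgeR (-2.19 ± 0.34), and its TPM of 33.6 and 73.5, then 38.6 and 37.1, overlapped between the ages. Fgd4 rose from 17.6 and 18.8 CPM to 78.7 and 50.3.

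Of the transcription factors and signals of the cochlea that were looked up by name, Cdkn1b and Tead3 started at members. Tead3 had 5.50 and 20.5 CPM at E12.0, then 19.1 and 13.3 at E13.5, and was not called (log2 change 0.31 ± 0.56). Sox2, Yap1, Wwtr1, Tead2, Gata3 and Jag1 started near constantly open regions in 1 to 3 H3K27ac lists, and Atoh1, the hair cell factor, near one in none. Tead1 and Tead4 fell in the same class as Sox2, but by an end of the gene span, which may not be the start. Jun (an AP-1 subunit) rose from 121 and 125 CPM to 545 and 576 at its member, and Slc1a3 (a glutamate transporter of glia and supporting cells) from 192 and 171 to 445 and 493. Rbms3 (51.3 and 53.7, then 115 and 88.1 CPM) and Id2 (570 and 456, then 771 and 969 CPM) were called higher by smaller margins. Leaving out 1 RNA library took their adjusted p above the threshold, to 0.10 for Rbms3 without E13.5 replicate 1 and to 0.20 for Id2 without E12.0 replicate 2 (edgeR). Id2, an inhibitor of DNA binding by helix-loop-helix factors, was also a weakly acetylated member, with H3K27ac ranks of 0.00617, 1.63, 0.0542 and 42.7.

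Away from promoters, prosensory genes were the nearest coding genes of several distal members. Of the 1360 distal members, 51 (3.75%) had a gene of some list as their nearest coding gene, where the lists hold 2.35% of coding genes, and 17 of these (1.25%) had a prosensory gene, where that list holds 0.116%. A share of regions stands here beside a share of genes, which is an unlike measure. The same share was not computed for distal regions of the other classes, and none of these shares was tested. Mycn, a growth-promoting transcription factor, was nearest to 5 of them, at 30503 to 130343 bp. Isl1 was nearest to 3 and Sox2 to 2, at 116790 bp (chr3:34532208-34533205, mean ranks of 96.3 in ATAC and 92.7 in H3K27ac) and at 463297 bp (chr3:35113292-35114415). Hmga2 and Eya1 were nearest to 2 each, and Hey2, Fgfr1 and Fgf20 to 1 each. Among Hippo genes and Yap/Tead targets, Tead1, Vgll4, Ccn1 and Asap1 were nearest to 2 each, and Lats2, Wwc2, Ccnd1, Ccn2 and Rbms3 to 1 each. Tead1 had no annotated start, and its members lay 80062 and 108810 bp from an end of its gene span, which may not be the start. The first of these and both Asap1 members were in both Tead lists. A member 42599 bp from Lgr5, a Wnt-responsive gene of supporting cells, was in both Tead lists, with mean ranks of 92.6 in ATAC and 95.6 in H3K27ac. Genes of other cell types were nearest to some too: Cdh5 (endothelial) to 2, and Lum and Dcn (mesenchymal), Ptprc (immune), Stmn2 (neuronal), Mitf and Tyrp1 (melanocyte) and Dll1 (in the hair cell list) to 1 each. Nearness is not a link to the gene. The 547 tested genes nearest to a distal member within 100 kb, with none near their start, included 125 higher (22.9%) and 139 lower (25.4%), close to the background.

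Marker RNA of other cell types differed between some libraries. Summed TPM of the 5 mesenchymal markers was 728 and 818 at E12.0, then 419 and 530 at E13.5, with 2 of 5 at 1 TPM or more in every library. That of the 3 melanocyte markers was 0.153 and 0.0828, then 2.90 and 25.6. The 3 immune markers summed to 16.1 and 3.37, then 7.92 and 2.12, and the 4 neuronal markers to 7.18 to 16.6. Endothelial and erythroid markers summed to under 1 TPM in every library. None of these markers of other cell types started near a member, and neither did any of the 8 epithelial and prosensory markers. The part of the other cell types in the RNA results was not tested.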

How the data were processed

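Libraries of RNA, ATAC and CUT&RUN from sorted mouse cochlear progenitors were analysed. STAR, UMI-tools and MACS2, with the builds GRCm38 and mm10, are named in the submitters' processing notes, without roles. Per the file headers, the deposited RNA tables hold an expected count per Ensembl gene with its length, while the counting tool was not given in the sources used here. Peak lists were deposited 1 per library and carry for each peak a fold (a ratio of signal to local background), a −log10 p, a −log10 q and a score, set by the authors.

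Peak intervals were merged and overlapped at 1 bp or more with Python 3.11.15, numpy 2.4.6 and pandas 2.3.3. Folds were ranked only within their list. Gene starts came from RefSeq promoters of GRCm38.p6, or, for 4357 of 21631 coding genes missing there, from either end of the gene span. A region is near a start within 500 bp. Expected counts were rounded and tested with edgeR 4.0.16 in R 4.3.3 (filterByExpr, TMM, quasi-likelihood, Benjamini-Hochberg over 15982 genes, 13148 of which matched RefSeq). TPM was computed from counts and effective lengths. The test was checked on simulated data. DESeq2 1.42.0 and limma 3.58.1 were alternatives, as were leaving out libraries, stricter peaks and other distances. Precision of shares is limited by the number of libraries.

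The members and gene lists were chosen with earlier results of these data known. Named were the 6 strongest members near a start and the 6 strongest over 10 kb away, the 6 strongest in both Tead lists and 4 such over 10 kb away, the 6 largest rises and falls among coding genes near a member with a mean of at least 10 CPM and no overlap between ages, up to 2 genes per list, 11 cochlear genes looked up by name, and 3 regions on each side of the width limit. The 120 members on chromosome 18 were counted but not named, and 1 of the 6 strongest members over 10 kb away is not reported here. Summit distances, width bins, the X chromosome comparison and the printed promoters were chosen after seeing the data.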

Additional observations from a re-analysis of the deposited data

How the results depend on the processing

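The number of members was 351 when each H3K27ac list had to cover at least 50% of the region, 1040 with peaks of −log10 q of 2 or more and 1386 under 1000 bp, and it ranged from 3508 to 8922 when 1 ATAC or H3K27ac replicate was left out. Leaving out 1 Tead replicate gave 11.1% to 95.0% of members with an interval. The share of members near a start was 52.9% within 2000 bp, 64.7% with the stricter peaks and 44.0% with annotated starts only, which also put 10.6% of tested genes near a member instead of 12.4%. Genes near a member called higher and lower numbered 886 and 179 on log2(TPM + 1) with limma, and 711 and 135 on log2(TPM + 0.1). Leaving out 1 RNA replicate gave 297 to 348 higher and 377 to 419 lower. Their median log2 fold change was 0.016 with RLE scaling and with DESeq2, 0.15 with no filter on low counts, 0.86 and 0.91 on the 2 TPM scales, and 0.036 to 0.13 with 1 RNA replicate left out. With the replicate number as a block, 422 were higher and 469 lower (median 0.07), and same-numbered libraries did not deviate together (correlation -0.00491). That is 1 correlation between 1 library of each age, so it cannot decide whether same-numbered libraries shared a sort or a preparation. Of 376 values of 47 named genes under alternatives, 350 kept direction and side of the threshold, 21 lost the call and 5 changed sign: Tead2 on log2(TPM + 1) (0.21), and, over the RNA libraries left out in turn, Tead3 (-0.36 to 1.55), Tead4 (-1.57 to 0.30), Mtr (-0.38 to 1.19) and Zfp748 (-0.34 to 0.69). The cause was not tested. Weak peaks in 2 H3K27ac lists and 1 Tead list limit how firmly membership and Tead overlap can be read.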
